A study of Sus scrofa with 24 samples.

Results

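A handful of miRNAs are known as markers of blood cells and endothelial cells, though some are made elsewhere too, and these miRNAs were followed here in cultured pig adipocytes. The members were all entries of the deposited table named ssc-miR-126, ssc-miR-142, ssc-miR-144, ssc-miR-150, ssc-miR-223, ssc-miR-451 or ssc-miR-486, with any arm. This rule gave 9 of the 1587 entries, of which 363 are known miRNAs and 1224 are newly predicted ones, and it used no measured value. The members are ssc-miR-126-3p, ssc-miR-126-5p, ssc-miR-142-3p, ssc-miR-142-5p, ssc-miR-144, ssc-miR-150, ssc-miR-223, ssc-miR-451 and ssc-miR-486.

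The study asked how adipogenesis differs between subcutaneous and intramuscular fat of the pig. Small RNA was sequenced from adipocytes grown from back subcutaneous fat (BF) and from the longissimus dorsi muscle (IMF) of Yorkshire piglets aged 6 days. Cells were collected on day 0, before induction, and on day 2, day 4 and day 8 of differentiation, which gives 8 groups (BF-0d to BF-8d and IMF-0d to IMF-8d) and 24 libraries, 3 in each group. According to the methods, the cells came from 3 piglets and were grown in medium with fetal bovine serum, and differentiation was started with IBMX, dexamethasone and insulin, followed by insulin and then by growth medium. A bovine miRNA from the serum with the sequence of a pig miRNA cannot be told apart from it in the deposited values, and its part in the low read numbers was not tested. The groups therefore share age and breed. Days differ in medium as well as in time, and these cannot be told apart. BF and IMF of one day share the medium and differ in tissue of origin and in isolation, since muscle was digested for longer and with more collagenase than back fat, and these cannot be told apart either. The labels do not tie a library to a piglet or a dish, so the p-values measure the spread between these libraries, part of which may be technical. The cells were isolated preadipocytes and no sort that removes other cell types is described.

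A miRNA is cut from a hairpin precursor, either arm of which (5p or 3p) can give a mature strand, and bases 2 to 8 of that strand, the seed, pair with target mRNAs. miR-126 lies within the endothelial gene EGFL7 and is the classic miRNA of vascular endothelium. miR-451 and miR-144 come from one cluster and, with miR-486, mark erythroid cells, while miR-486 also lies in the ankyrin gene ANK1 and is made by muscle fibres. miR-142 is made across the blood lineage, miR-223 by myeloid cells and miR-150 by mature lymphocytes. Fat tissue holds vessels and blood, whereas a culture of preadipocytes is mostly of fibroblast-like cells.

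The mature sequences are shown because they define what each member counts. They are written 5′ to 3′ with T for U, and the seed is in capitals.
ssc-miR-126-3p: tCGTACCGtgagtaataatgcg
ssc-miR-126-5p: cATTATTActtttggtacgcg
ssc-miR-142-3p: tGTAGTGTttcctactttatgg
ssc-miR-142-5p: cATAAAGTagaaagcactact
ssc-miR-144: tACAGTATagatgatgtac
ssc-miR-150: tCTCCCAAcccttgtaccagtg
ssc-miR-223: tGTCAGTTtgtcaaatacccc
ssc-miR-451: aAACCGTTaccattactgagtt
ssc-miR-486: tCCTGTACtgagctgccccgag

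The 9 seeds all differ, so that no member can be taken for another by its seed. Among the 358 known entries whose sequence could be read, none shared a seed with a member, and each mature sequence and each hairpin had 1 exact copy in the pig assembly Sscrofa11.1. Among the 600 new entries with a sequence, novel_miR_583 (cATTATTActcacggtacgagt, mean 0.034 TPM) had the seed of miR-126-5p and lay on the opposite strand of the miR-126 hairpin.

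On Sscrofa11.1 with its RefSeq annotation, the miR-126 hairpin lies in an intron of EGFL7, on the same strand, on a scaffold not placed on a chromosome. The miR-142 hairpin is at chr12:34609378-34609457 (minus strand), outside other annotated genes. The hairpins of miR-451 (chr12:45088808-45088872) and miR-144 (chr12:45088958-45089033) lie 85 bases apart on the minus strand, opposite to ERAL1 and within an intron of it. The miR-150 hairpin is at chr6:54580912-54580988 (minus strand), outside other annotated genes. The miR-223 hairpin is at chrX:52173142-52173220 (plus strand), in an exon of the long non-coding RNA LOC110257651. The miR-486 hairpin is at chr17:10758818-10758899 (minus strand), in an intron of ANK1 on the same strand.

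Values are in the unit the authors call TPM, which here is the number of reads of an entry for every 1000000 miRNA reads of the library, with no correction for length. Libraries held from 4954845 to 16863560 miRNA reads (median 10614384), and 3 reads, taken as the floor, are worth from 0.178 to 0.605 TPM. PCR copies cannot be told from separate molecules, so the floors and the Wilson intervals of read shares cover counting error only. The limma intervals rest on the spread between libraries. The replicates of each group were separate libraries, as their read counts differed beyond sampling noise (chi-square over its degrees of freedom 38.8 or more for any 2). ssc-miR-21-5p alone took from 27.9% to 60.5% of a library.

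The 9 members were a minor part of these libraries, and most of what they had was miR-126-3p. Summed over the 9, a library held from 19.9 to 94.7 TPM. miR-126-3p gave 10824 of the 11923 member reads of the 24 libraries, or 90.8%, and its mean of 43.0 TPM ranked 138 among the 1587 entries and 127 among the known ones. Without the arms of miR-126, the 7 blood members summed to no more than 8.08 TPM and to no less than 0.66 TPM in any library. Their reads over all libraries were 452 for miR-486, 162 for miR-142-3p, 133 for miR-451, 43 for miR-142-5p, 3 each for miR-144 and miR-223, and 1 for miR-150. Only 3 members had a mean of at least 1 TPM and entered the limma fits with 427 other entries: miR-126-3p, miR-126-5p (mean 1.24 TPM) and miR-486 (mean 1.63 TPM). miR-486 passed this limit through a single group, since its mean without IMF-8d was 0.97 TPM.

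For scale, the fibroblast and preadipocyte miRNAs of a list fixed for this purpose (miR-143-3p, miR-145-5p, both arms of miR-199a and miR-214-3p) summed to between 56738 and 103219 TPM in a library, led by miR-143-3p with a mean of 74727 TPM. A list for liver, neurons, islets, pancreas, gonad and epithelia, cell types with no place in these cultures, had 12 distinct entries in the table that summed to between 24.04 and 84.5 TPM, led by ssc-miR-9 (mean 28.6 TPM). The miR-126 arms, at 18.2 to 90.9 TPM, lay in the same range as that list, and the 7 blood members lay below it in every library. No miRNA of these lists marks adipocytes alone, so the label adipocyte could not be checked with them.

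The endothelial miRNA miR-126-3p was the one member with a clear level in every library, and it was higher in subcutaneous than in intramuscular adipocytes. In BF-0d its values were 69.8, 36.7 and 68.7 TPM, in BF-2d 52.6, 41.5 and 24.9 TPM, in BF-4d 83.5, 51.7 and 65.4 TPM, and in BF-8d 48.6, 89.0 and 75.7 TPM. In IMF-0d they were 30.8, 17.4 and 40.2 TPM, in IMF-2d 26.4, 25.4 and 24.05 TPM, in IMF-4d 30.5, 18.0 and 27.7 TPM, and in IMF-8d 34.1, 24.1 and 25.1 TPM. The lowest of the 12 BF libraries (24.9 TPM, 219 reads, in BF-2d) lay under the highest of the 12 IMF libraries (40.2 TPM, 387 reads, in IMF-0d). On day 4 and day 8 every BF library was above every IMF library, and on day 0 and day 2 the sources overlapped. If the labels did not matter, 3 and 3 libraries would separate with a probability of 0.1. The share of all entries that separated was not counted.

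**Figure D1:**
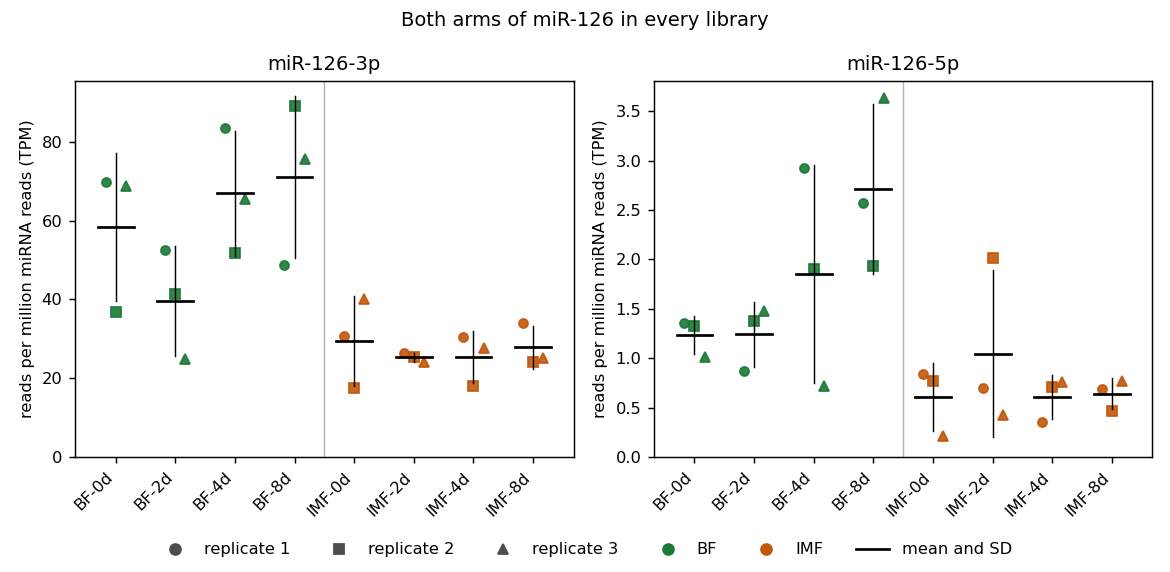
Level of miR-126-3p (left) and miR-126-5p (right) in each of the 24 libraries, in TPM on a linear axis. Points are libraries with 1 symbol for each replicate, horizontal lines are group means and vertical lines are SD over 3 libraries. The BF means of miR-126-3p run from 39.7 to 71.1 TPM and the IMF means from 25.3 to 29.4 TPM.

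In order, the group means of miR-126-3p were 71.1 ± 20.6 TPM (SD, n = 3) in BF-8d, 66.9 ± 15.9 in BF-4d, 58.4 ± 18.8 in BF-0d, 39.7 ± 14.0 in BF-2d, 29.4 ± 11.5 in IMF-0d, 27.8 ± 5.48 in IMF-8d, 25.4 ± 6.57 in IMF-4d and 25.3 ± 1.17 in IMF-2d. Every BF group stood above every IMF group in this order, but no 2 neighbours differed by more than the larger of their SDs. The mean of BF over that of IMF was 1.98-fold on day 0, 1.57-fold on day 2, 2.63-fold on day 4 and 2.56-fold on day 8. In bulk samples such as these, fewer cells of a type and less RNA per cell cannot be told apart.

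Each comparison was fitted by limma on log2(TPM + 1) over 430 entries, and an entry was called when its Benjamini-Hochberg FDR was below 0.05 and it changed by over 1.5-fold. This scale understates the change of entries with few reads. Taken over the 4 days, the IMF minus BF difference of miR-126-3p was -1.05 (SE 0.15, 95% confidence interval -1.37 to -0.74, limma adjusted p = 1.29e-06). It was called on day 4 (-1.37, SE 0.27, adjusted p = 0.0021) and on day 8 (-1.30, SE 0.23, adjusted p = 5.18e-04), and it was not called on day 0 (-0.98, interval -1.97 to 0.0044, adjusted p = 0.116) or day 2 (-0.57, interval -1.22 to 0.090, adjusted p = 0.226). The day 4 call was lost with no filter on low values (adjusted p = 0.068), and day 2 was called without BF-2d replicate 3 (-0.86, adjusted p = 0.013). Day 0 was the 1 of 12 comparisons in which same-numbered libraries deviated together in all 3 pairs. There the limma fit with the number as a block called miR-126-3p (adjusted p = 0.012), but the labels do not say that the numbers pair libraries. The difference did not pass the test of a change across days (source-by-day interaction, limma adjusted p = 0.388), so the days on which it was called and those on which it was not are not shown to differ.

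Many entries were lower in IMF, so the member has to be read against them. The median IMF minus BF difference of the 430 entries was -0.13 on day 0, -0.14 on day 2, -0.34 on day 4, -0.28 on day 8 and -0.22 over the 4 days, and 32 of the entries had a more negative value than miR-126-3p over the 4 days. Median-of-ratios scaling, which takes this shift out, left the difference of miR-126-3p at -0.80 (adjusted p = 1.93e-05). Over the 4 days 136 entries were called (31.6%), 94 of them lower in IMF (21.9%), where 2 of the 3 members tested were called, both lower in IMF. With median-of-ratios scaling the split was 47 higher and 53 lower, against 42 and 94.

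**Figure D2:**
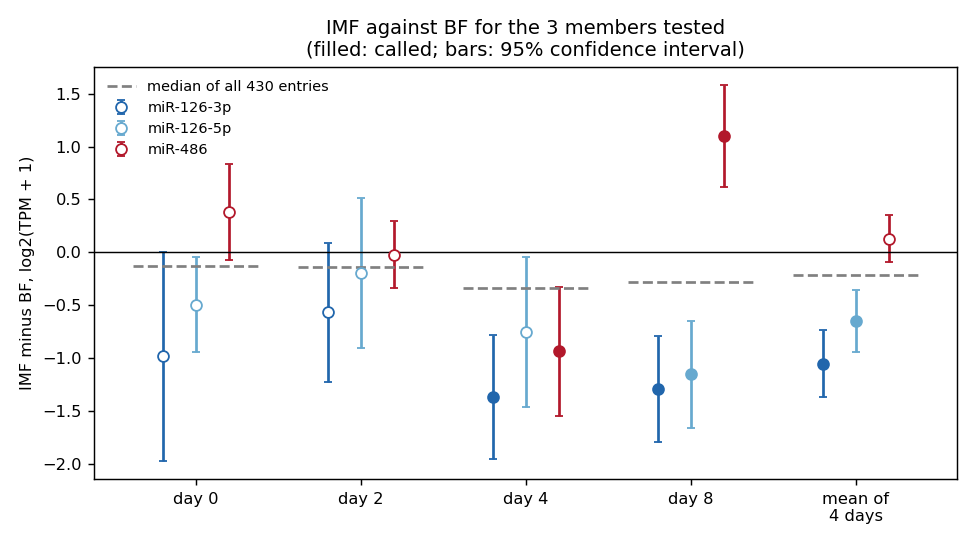
IMF minus BF difference of log2(TPM + 1) for the 3 members tested, by day and as the mean of the 4 days, with the 95% confidence interval of the limma fit. Filled points were called, open points were not, and dashed lines are the median of the 430 entries. miR-126-3p lies between -1.37 and -0.57 on every day, while miR-486 is at -0.94 on day 4 and at 1.10 on day 8.

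The other arm, miR-126-5p, was a minor product with the same direction. In BF-0d its values were 1.36, 1.33 and 1.01 TPM, in BF-2d 0.87, 1.37 and 1.48 TPM, in BF-4d 2.93, 1.90 and 0.72 TPM, and in BF-8d 2.57, 1.93 and 3.63 TPM. In IMF-0d they were 0.84, 0.77 and 0.21 TPM, in IMF-2d 0.70, 2.01 and 0.42 TPM, in IMF-4d 0.36, 0.71 and 0.76 TPM, and in IMF-8d 0.69, 0.47 and 0.77 TPM. These are from 2 to 33 reads a library. BF and IMF did not overlap on day 0 and day 8, and the share of all entries that did so was not counted. The IMF minus BF difference was -0.65 over the 4 days (SE 0.14, limma adjusted p = 3.34e-04) and -1.16 on day 8 (SE 0.24, adjusted p = 0.0014), and no other day was called, with adjusted p from 0.088 to 0.685. Day 4 was called in one fit of all 24 libraries (-0.76, adjusted p = 0.033) and without BF-4d replicate 3 (-1.08, adjusted p = 0.013). The call over the 4 days was lost with median-of-ratios scaling, where the fold was 1.43 (adjusted p = 0.0040), and without replicate 1 of BF-4d, where it was 1.499 (adjusted p = 4.52e-04), in both cases for the size of the fold.

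Both arms of miR-126 come from one hairpin, and their ratio within a library does not depend on how the library was scaled. The 5p arm gave 302 of the 11126 reads of the hairpin, or 2.71% (95% Wilson interval 2.43 to 3.03), and between 2.02% (IMF-0d) and 4.00% (IMF-2d) in a group. Both ends lean on 1 library. IMF-2d replicate 2 gave 20 of the 31 5p reads of its group. IMF-0d replicate 3 gave 2 of the 18 5p reads of its group, with 387 3p reads. The log2 ratio of 3p over 5p reads was 5.14 ± 0.78 in BF and 5.39 ± 0.99 in IMF (SD, n = 12 libraries each). An exact permutation of the source labels within days gave p = 0.519 for the IMF minus BF difference of 0.24, two-sided, over 160000 orders, so no difference in arm use was detectable at this depth. For miR-142 the 5p arm gave 43 of 205 reads, or 21.0% (Wilson interval 16.0 to 27.1).

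Among the erythroid members, miR-486 was the only one with enough reads for the limma fits, and it stood out in IMF-8d. In IMF-0d its values were 0.38, 0.98 and 1.14 TPM, in IMF-2d 0.40, 0.80 and 0.74 TPM, in IMF-4d 0.62, 0.064 and 0.28 TPM, and in IMF-8d 6.63, 5.95 and 6.23 TPM. In reads this was 7, 1 and 3 in the IMF-4d libraries against 87, 89 and 81 in the IMF-8d libraries. The 3 IMF-8d libraries were the highest of all 24, well apart from the next one at 2.88 TPM.

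In subcutaneous adipocytes miR-486 rose as well, in smaller steps. The values were 0.45, 0.46 and 0.24 TPM in BF-0d, 0.74, 0.69 and 0.57 TPM in BF-2d, 1.29, 1.80 and 1.44 TPM in BF-4d, and 2.88, 1.77 and 2.62 TPM in BF-8d. Libraries of day 0 and day 8 did not overlap in either source, and the share of all entries of which this holds was not counted. The means rose 6.31-fold from BF-0d to BF-8d and 7.52-fold from IMF-0d to IMF-8d, and 19.4-fold from IMF-4d to IMF-8d. The last of these rests on the 11 reads of IMF-4d and was 36.0-fold without IMF-4d replicate 1.

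**Figure D3:**
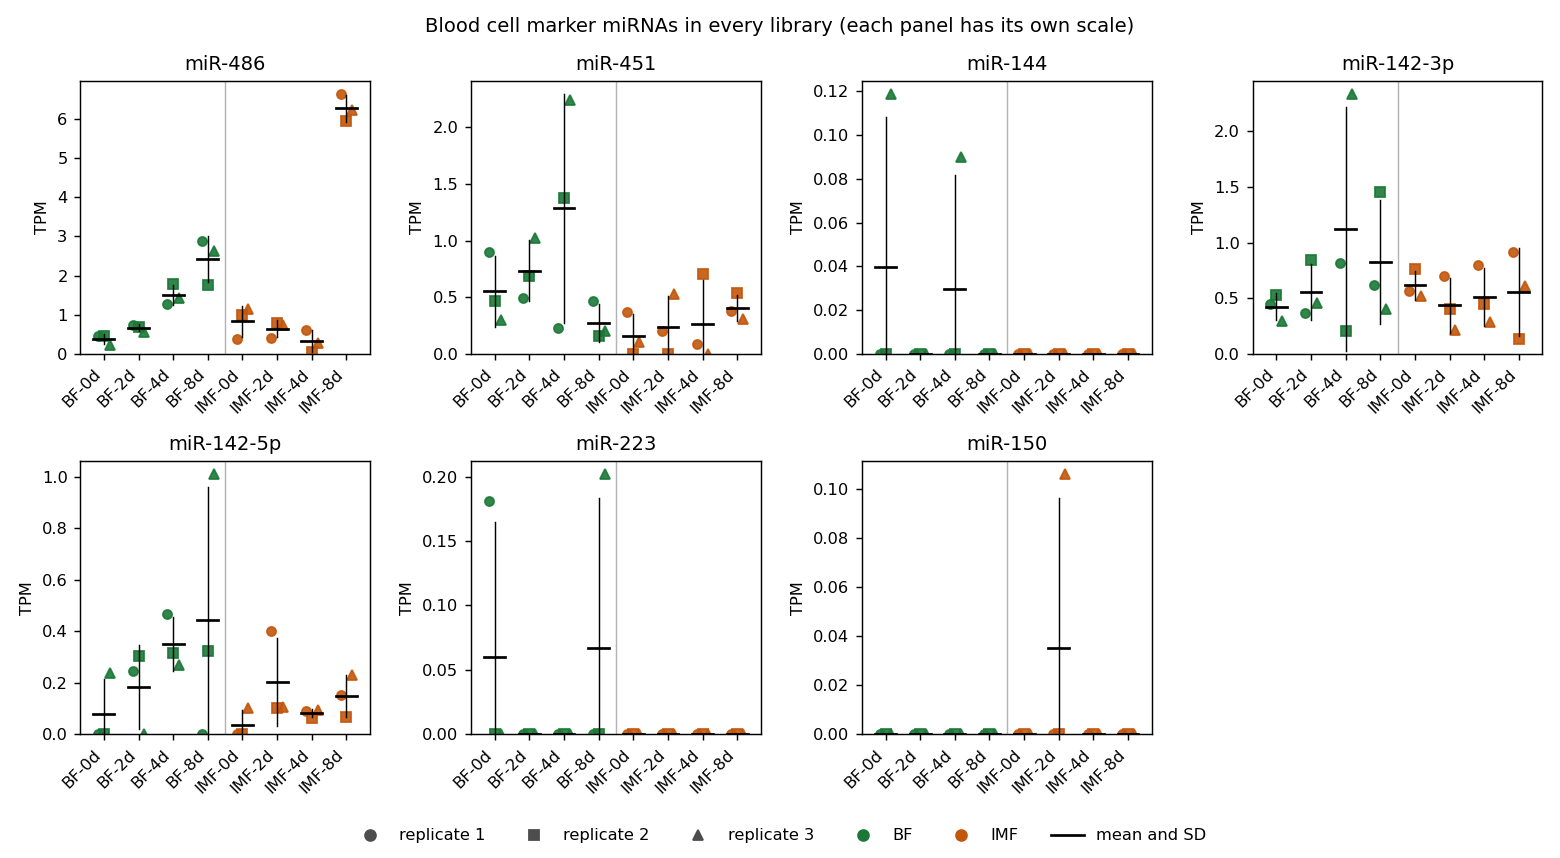
Level of the 7 blood cell marker miRNAs in each of the 24 libraries, in TPM on linear axes that differ between panels. Points are libraries, horizontal lines are group means and vertical lines are SD over 3 libraries, cut off at 0. miR-486 reaches 5.95 to 6.63 TPM in IMF-8d, while miR-144, miR-223 and miR-150 have 1 or 2 reads in 1 or 2 libraries.

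Since miR-486 passed the limit of 1 TPM only through IMF-8d, its tests are given from the limma fit of all 1587 entries, which has no such limit, with the value of the 430 entries after it. limma called the rise from IMF-4d to IMF-8d (2.48 on the log2(TPM + 1) scale, adjusted p = 0.0046, against 2.37e-04 with the limit), from IMF-0d to IMF-8d (2.01, adjusted p = 0.0101, against 8.72e-04) and from BF-0d to BF-8d (1.30, adjusted p = 0.0128, against 4.25e-04). On whole reads, which this scale compresses, edgeR gave a log2 fold change of 4.11 from IMF-4d to IMF-8d and DESeq2 4.14 (SE 0.53). Both were fitted to the 430 entries only, which miR-486 joined through IMF-8d. In that comparison 13.0% of the entries were called and 12.3% were called higher on day 8, where the median of all entries was 0.18, and the 56 calls became 32 without IMF-8d replicate 2 (32 to 62 with 1 library left out). From IMF-0d to IMF-8d 30.5% were called, 19.8% higher, and from BF-0d to BF-8d 42.8%, 27.9% higher. These are shares of the 430 entries. In the fit of all 1587 entries limma called 28 from IMF-4d to IMF-8d (26 higher) and 70 from IMF-0d to IMF-8d (49 higher). From BF-0d to BF-8d it called 155 of the 1587 (113 higher). Among the 430 entries, the calls from IMF-4d to IMF-8d with median-of-ratios scaling were 37 higher and 11 lower, against 53 and 3. Those from BF-0d to BF-8d were 97 and 88, against 120 and 64.

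miR-126-5p was the only other member called between days, from BF-0d to BF-8d (0.71, SE 0.25, limma adjusted p = 0.028). This call was lost with median-of-ratios scaling (adjusted p = 0.052), with DESeq2 (adjusted p = 0.084), with no filter on low values and without any one of the 3 BF-0d libraries or BF-8d replicate 3. Between adjacent days no member was called apart from miR-486 in IMF-4d vs IMF-8d. The share of entries called was 4.19% for BF-0d vs BF-2d, 6.05% for BF-2d vs BF-4d and 3.02% for BF-4d vs BF-8d, and with 1 library left out these calls ran from 0 to 42, from 2 to 78 and from 0 to 30 entries. For the IMF steps from day 0 to day 2 and from day 2 to day 4 it was 0% by limma, with 68 and 65 entries at an unadjusted p under 0.05, where edgeR called 7 and 1 entries and DESeq2 called 9 and 2. In the first of these steps limma called 12 entries without IMF-0d replicate 2, 3 with median-of-ratios scaling and 2 with a pseudocount of 0.1 TPM.

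The course of miR-486 differed between the sources (source-by-day interaction, limma adjusted p = 8.60e-05 over all 1587 entries and 1.66e-04 over the 430, of which 31.6% passed). It was higher in IMF on day 8 (1.10, adjusted p = 0.0148 over all entries and 0.0013 over the 430). On day 4 it was called lower in IMF among the 430 entries only (-0.94, SE 0.28, adjusted p = 0.019), and it was not called on day 0 (0.38, interval -0.072 to 0.84) or day 2 (-0.023, interval -0.34 to 0.30). The day 4 call rests on 44 and 11 reads in all and was lost with median-of-ratios scaling, edgeR, DESeq2 and no filter on low values, with adjusted p from 0.055 to 0.092, and also without BF-4d replicate 2, IMF-4d replicate 2 or IMF-4d replicate 3. Over the 4 days the difference was 0.13 (interval -0.093 to 0.35).

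Between the sources, 12.3% of the entries were called on day 2 and 29.3% on day 0, against 36.3% on day 4 and 37.2% on day 8. On day 4, 28.8% were called lower in IMF, among them 2 of the 3 members tested, miR-126-3p and miR-486. The latter is among the entries tested only through IMF-8d. In the fit of all 1587 entries limma called 39 lower in IMF on day 4, and 0 members. On day 8, 25.1% were lower in IMF, among them both arms of miR-126, and 12.1% were higher. miR-486 was among the higher ones, in a set of entries that it joined through IMF-8d itself. In the fit of all 1587 entries limma called 46 higher in IMF on day 8, among them miR-486. It called 97 lower, among them both arms of miR-126. Among the 430 entries, median-of-ratios scaling changed the split of all calls on day 4 from 32 higher and 124 lower to 52 and 68. On day 8 the split changed from 52 and 108 to 83 and 64, while both arms of miR-126 stayed called lower.

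The remaining erythroid members had few reads, and their highest values were not in IMF-8d. miR-451, the most abundant miRNA of red cells, had 10, 7 and 5 reads in the BF-0d libraries, 4, 9 and 9 in BF-2d, 2, 13 and 25 in BF-4d and 6, 1 and 1 in BF-8d. In IMF it had 4, 0 and 1 reads on day 0, 2, 0 and 5 on day 2, 1, 11 and 0 on day 4, and 5, 8 and 4 on day 8. It was highest in BF-4d, at 1.28 ± 1.01 TPM (SD, n = 3), where the libraries ranged from 0.23 to 2.24 TPM, and in IMF-8d it was at 0.41 ± 0.12 TPM against 6.27 ± 0.34 TPM for miR-486. Over all libraries of a source it was at 0.71 ± 0.61 TPM in BF and 0.27 ± 0.24 TPM in IMF (SD, n = 12).

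miR-144, the partner of miR-451 on the same cluster, had 2 reads in BF-0d replicate 3 and 1 read in BF-4d replicate 3. It was at 0 in the other 22 libraries, which allows up to 3 reads in each. All 3 reads were in BF, and the highest value was 0.12 TPM, below the floor of its library.

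The leukocyte members were low throughout. miR-142-3p, the better measured of them, had from 2 to 26 reads a library, with group means from 0.43 ± 0.12 TPM (BF-0d) to 1.12 ± 1.09 TPM (BF-4d) in BF and from 0.44 ± 0.25 (IMF-2d) to 0.62 ± 0.13 TPM (IMF-0d) in IMF (SD, n = 3 each). Its highest value, 2.33 TPM in BF-4d replicate 3, came from the library that also had the highest miR-451 (2.24 TPM), and the other 2 BF-4d libraries were at 0.82 and 0.21 TPM. miR-142-5p had at most 5 reads in a library and none in 6 libraries. The myeloid miR-223 had 2 reads in BF-0d replicate 1 and 1 in BF-8d replicate 3, and was at 0 in the other 22 libraries. The lymphoid miR-150 had 1 read in IMF-2d replicate 3 and was at 0 in the other 23.

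All 9 members, those under 1 TPM included, were also tested by exact permutation, with no model of the spread, among the 1587 entries. With source labels permuted within days (160000 orders, two-sided), 242 entries passed an FDR of 0.05 (15.2%), and miR-126-3p (exact p = 8.75e-05, adjusted p = 0.0013) and miR-126-5p (exact p = 8.63e-04, adjusted p = 0.0088) were among them. Neither passed without the libraries numbered replicate 1 (adjusted p = 0.076 and 0.162), and miR-126-5p did not pass without those numbered replicate 3 (adjusted p = 0.108). Leaving out a number cut the orders to 1296, with a smallest possible p of 0.0015 against 1.25e-05. Without replicate 1 the mean differences were -1.08 and -0.59, against -1.05 and -0.65 with all libraries. miR-451 had a lower mean in IMF on day 0, day 2 and day 4 and a higher one on day 8, and its mean difference of -0.39 did not pass (exact p = 0.0205, adjusted p = 0.109). In the limma fit of all entries its adjusted p over the 4 days was 0.041, with a fold under 1.5, so that it was not called. The other 6 members had adjusted p from 0.298 to 1. With day 0 and day 8 permuted within sources (400 orders), 0 of the 1587 entries passed (0%), since the smallest p possible is 0.005 and the smallest adjusted p was 0.058, and 305 entries had an unadjusted exact p under 0.05. miR-486 reached that smallest p (mean difference 1.65), and no other member was under 0.05, with exact p from 0.065 to 1.

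The place of the members among the other entries is shown by the plot of all differences. miR-126-3p lay within the bulk of the entries called lower in IMF, and miR-486, which is among the 430 entries only through IMF-8d, lay at the upper edge of the IMF-8d minus IMF-4d differences.

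**Figure D4:**
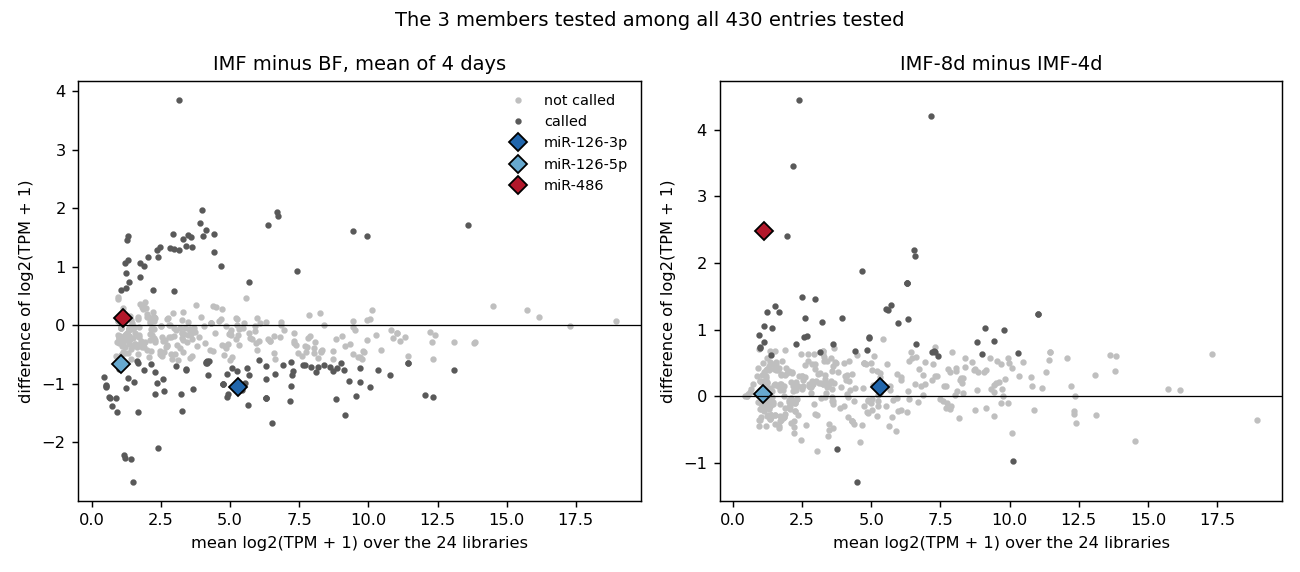
Difference of log2(TPM + 1) against the mean log2(TPM + 1) over the 24 libraries for the 430 entries tested, as IMF minus BF over the 4 days (left) and as IMF-8d minus IMF-4d (right). Each point is an entry, dark points were called, and diamonds are the members. In the left panel miR-126-3p is at -1.05 and miR-126-5p at -0.65, and in the right panel miR-486 is at 2.48.

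Markers of other cell types moved in the same comparisons, and their part in the member results was not tested. The muscle list (7 of its 8 entries are in the table, 3 were tested) summed to 842.1 ± 144.3 TPM in IMF-4d and 1268 ± 332 TPM in IMF-8d, and to 930 ± 100 TPM in BF-0d and 1773 ± 533 TPM in BF-8d (SD, n = 3 each). The sum, which is mostly ssc-miR-1, was at 1311 ± 415 TPM in IMF-0d, above IMF-8d, and its mean in IMF-8d was under that of BF-8d. miR-133a-3p was at 14.7 ± 3.85 TPM in IMF-0d, 22.4 ± 1.11 TPM in BF-8d and 26.6 ± 2.32 TPM in IMF-8d. These groups were ordered as for miR-486, but BF-0d and IMF-4d were ordered the other way. miR-133a-3p was at 7.68 ± 0.15 TPM in BF-0d and 11.3 ± 1.33 TPM in IMF-4d, and miR-486 at 0.38 and 0.32 TPM. By limma miR-133a-3p was called higher in IMF-8d than in IMF-0d but not than in BF-8d. From IMF-4d to IMF-8d, where miR-486 rose, 1 of the 3 was called, miR-133a-3p, which rose from 11.3 ± 1.33 to 26.6 ± 2.32 TPM (1.17, SE 0.16, limma adjusted p = 0.0036). ssc-miR-1, the most abundant muscle entry, was at 816.4 ± 143.5 and 1228 ± 334 TPM (adjusted p = 0.130). The third entry tested, ssc-miR-499-5p, was at 13.8 ± 2.39 and 12.1 ± 2.10 TPM (-0.18, adjusted p = 0.578), and it was called lower in BF-8d than in BF-0d, where ssc-miR-1 and miR-133a-3p were called higher. The muscle miR-206 was near 0, at 0.19 TPM on average. The muscle list median was 0.57 in this comparison against 0.18 for all entries.

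Other leukocyte-rich miRNAs were far more abundant than the blood members. The list of both arms of miR-146a and miR-155, miR-342 and miR-363 (6 entries, 4 tested) summed to between 335 and 2460 TPM in a library, led by ssc-miR-155-5p with a mean of 632 TPM. From IMF-4d to IMF-8d its sum went from 410 ± 40.9 to 1486 ± 379 TPM, and 2 of the 4 were called, both higher. These were miR-146a-5p, from 38.0 ± 3.14 to 742 ± 220 TPM, and miR-155-5p, from 350 ± 42.3 to 721 ± 153 TPM. Not called were miR-342, at 7.61 and 8.71 TPM, and miR-363, at 15.3 and 14.8 TPM. From BF-0d to BF-8d, where miR-486 and miR-126-5p were called higher, its sum went from 720 ± 93.4 to 2070.0 ± 442 TPM and all 4 were called higher, with a median of 1.33 against 0.15 for all entries. Between the sources over the 4 days, all 4 tested were called lower in IMF, with a median of -0.99 against -0.22 for all entries. On day 8, miR-146a-5p was not called, at 562 ± 90.0 TPM in BF and 742 ± 220 TPM in IMF, and the other 3 were called lower in IMF. The most abundant entry of the list for other tissues, ssc-miR-9, was also called lower in IMF, by limma, over the 4 days (-0.998, adjusted p = 7.09e-09) and on day 8 (-1.16), next to -1.05 and -1.30 for miR-126-3p. These miRNAs are also made by many cells outside the blood. miR-142-3p, miR-223 and miR-150, which are more closely tied to blood cells, held from 0 to 26 reads in any of the 24 libraries. The fibroblast and preadipocyte list was at 81885 ± 12010 TPM in IMF-4d and 85454 ± 9243 TPM in IMF-8d. In BF-0d it was at 91087 ± 3807 TPM and in BF-8d at 71364 ± 15643 TPM, with a median of -0.44 against 0.15 for all entries. miR-145-5p was called lower in BF-8d than in BF-0d and miR-199a-3p higher. Between the sources, miR-199a-3p was called lower in IMF over the 4 days and miR-145-5p higher in IMF on day 8.

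**Figure D5:**
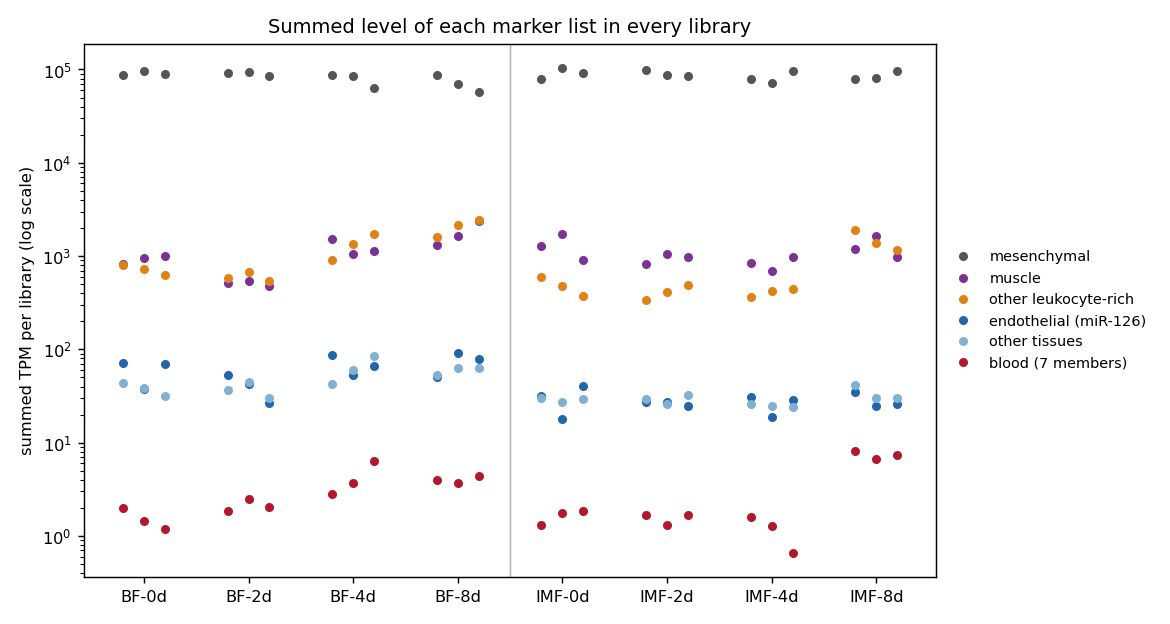
Summed TPM of each marker list in each of the 24 libraries, on a log axis, with 3 points a group for its libraries. The 7 blood members lie between 0.66 and 8.08 TPM and the miR-126 arms between 18.2 and 90.9 TPM, below the muscle and leukocyte-rich lists in every library.

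The entries whose values over the 24 libraries were most like each tested member were found by Pearson's r of log2(TPM + 1). These are descriptions over libraries that share groups and scaling. For miR-126-3p they were ssc-miR-296-3p (r = 0.92), ssc-miR-181d-5p (0.89) and ssc-miR-423-3p (0.88), and for miR-126-5p they were ssc-miR-10a-5p (0.79), ssc-miR-2320-3p (0.79) and novel_miR_39 (0.76). The other arm of the hairpin was not among the 3 for either. For miR-486 they were ssc-miR-452 (0.88), ssc-miR-224 (0.82) and the muscle miR-133a-3p (0.80). All 3 were called higher in IMF-8d than in IMF-4d, ssc-miR-452 from 1.66 ± 1.18 to 26.8 ± 3.61 TPM and ssc-miR-224 from 2.15 ± 0.88 to 15.6 ± 4.38 TPM (SD, n = 3 each). They were chosen for likeness to miR-486, which was highest in IMF-8d, so this rise was favoured by the choice and adds no support.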

How the data were processed

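The authors sequenced the small RNA of 24 libraries with single-end reads. Per the study's methods, clean reads were mapped to Sscrofa11.1 with Bowtie allowing no mismatch, reads of other small RNA classes were discarded, known miRNAs were named from miRBase and further ones predicted by miRDeep2, and DESeq2 was used to compare groups. The deposited values, named TPM, are in RPM: a column adds up to 1000000, and whole reads were recovered for all 38088 values (tolerance 0.001 reads). Every value column was used.

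The 430 entries averaging 1 TPM or more were fitted with limma 3.58.1 (eBayes with trend, R 4.3.3) on log2(TPM + 1), in 12 comparisons of 2 groups (earlier day subtracted from later, BF from IMF) and in one model of source, day and their interaction. Alternatives were a pseudocount of 0.1, other filters, median-of-ratios scaling, the replicate number as a block, edgeR 4.0.16 and DESeq2 1.42.0 on the whole reads, FDR alone, and leaving out libraries. Same-numbered libraries of BF-0d and IMF-0d deviated together (correlations 0.19, 0.51 and 0.21, all over 0.1), those of the other 11 comparisons did not in all 3 pairs. Exact permutation tests, sums and figures used Python 3.11.15, NumPy 2.4.6, pandas 2.3.3 and Matplotlib 3.10.9. Scripts were tested on simulated data. Sequences came from the study's supplementary list and positions from an exact match to Sscrofa11.1. The members, the marker lists and the tests were chosen with earlier results of these data known. Named beside the members are, by rule, the 3 entries most like each tested member, the most abundant entry of each marker list, entries that share a seed or hairpin, and ssc-miR-21-5p; miR-206, miR-133a-3p and the lists' other entries are named as list members.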

Additional observations from a re-analysis of the deposited data

Results flagged for a closer look

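The course of ssc-miR-486 over the days differed between the sources, by the limma test of the source-by-day interaction (adjusted p = 1.66e-04 over 430 entries). miR-486 is among these only through IMF-8d, and over all 1587 entries, with no limit on the mean, the adjusted p was 8.60e-05. In BF the means were 0.38, 0.67, 1.51 and 2.43 TPM on day 0, day 2, day 4 and day 8, and in IMF they were 0.83, 0.65, 0.32 and 6.27 TPM. The adjusted p ran from 3.36e-05 to 0.0020 over 30 alternatives, but all other than the one with no limit used the entries that miR-486 joined through IMF-8d, so the range says nothing of its stability. No other member passed it, with adjusted p of 0.388 for miR-126-3p and 0.244 for miR-126-5p. Groups of 3 libraries are too small for a search for single libraries that stand apart.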

How the results depend on the processing

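The number of members called was set against each alternative. A mean of at least 10 TPM left miR-126-3p as the 1 member tested, so that by construction miR-126-5p and miR-486 could not be called. miR-126-3p was not called in BF-0d vs BF-8d, IMF-4d vs IMF-8d, IMF-0d vs IMF-8d and the interaction, which left 0 members called there. It was called in BF-4d vs IMF-4d, in BF-8d vs IMF-8d and over all days, which left 1. For BF-0d vs BF-8d, 1 in place of 2 was called with no filter, with median-of-ratios scaling and with DESeq2 (1 to 2 with 1 library left out). For BF-4d vs IMF-4d, in place of 2, 0 were called with no filter and 1 with median-of-ratios scaling, edgeR and DESeq2, and 3 with one fit of all 24 libraries (1 to 3 with 1 library left out). Over all days 1 in place of 2 was called with median-of-ratios scaling (1 to 2 with 1 library left out). For BF-0d vs IMF-0d 1 in place of 0 was called with the replicate block, DESeq2 and one fit of all 24 libraries, and for BF-2d vs BF-4d 1 in place of 0 with that one fit. The exact test of day 8 against day 0 passed 1 in place of 0 (miR-486) when 430 entries were tested, among which miR-486 is only through IMF-8d, a day 8 group, so that this pass supports nothing (adjusted p = 0.058 over all entries). The exact test of the sources passed 0 to 2 with a replicate number left out, which left 1296 orders in place of 160000. Without replicate 1 the adjusted p was 0.076 for miR-126-3p and 0.162 for miR-126-5p, and without replicate 3 it was 0.108 for miR-126-5p. The replicate block changed no other number of members called. The cause was not tested, apart from the entries tested or libraries left out.

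Calls of single members depended on these libraries. miR-126-5p from BF-0d to BF-8d was lost without BF-0d replicate 1 (adjusted p = 0.059), replicate 2 (0.056) or replicate 3 (0.126), or BF-8d replicate 3 (0.073). In this order the limma folds were 1.69, 1.68, 1.56 and 1.46, against 1.64 with all libraries. miR-486 in BF-4d vs IMF-4d was lost without BF-4d replicate 2 (0.067), IMF-4d replicate 2 (0.088) or IMF-4d replicate 3 (0.053). Calls were gained by miR-126-3p in BF-2d vs IMF-2d without BF-2d replicate 3 (0.013, 0 to 1 members) and by miR-126-5p in BF-4d vs IMF-4d without BF-4d replicate 3 (0.013). The day 8 calls of both arms of miR-126 in BF vs IMF held with every library left out. Those of miR-486 in comparisons with IMF-8d did too, but in a set of entries that it joined through IMF-8d. The arm ratio difference of miR-126 was 0.13 with 1 read added to each arm and from 0.041 to 0.55 with a replicate number left out.

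The number of all entries called moved more. With no filter it was 5 in place of 18 for BF-0d vs BF-2d, 0 in place of 26 for BF-2d vs BF-4d, 3 in place of 13 for BF-4d vs BF-8d, 28 in place of 56 for IMF-4d vs IMF-8d, 70 in place of 131 for IMF-0d vs IMF-8d, 2 in place of 53 for BF-2d vs IMF-2d, 50 in place of 156 for BF-4d vs IMF-4d, and 76 for BF-0d vs IMF-0d, where 29.3% of the 430 entries were called with the filter. With one fit of all 24 libraries it was 46, 104 and 81 for the BF steps from day to day. With the block it was 0 for BF-0d vs BF-2d, 42 for BF-2d vs BF-4d and 9 for BF-2d vs IMF-2d. DESeq2 called 56, 54 and 24 for the BF steps. With 1 library left out, BF-0d vs BF-2d ran from 0 to 42, BF-2d vs BF-4d from 2 to 78, BF-4d vs BF-8d from 0 to 30, and BF-2d vs IMF-2d from 2 (without IMF-2d replicate 1 or 3) to 85 (without BF-2d replicate 3).

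Members under 1 TPM had from 1 to 162 reads over the 24 libraries, and log2(TPM + 1) understates their changes: the IMF minus BF difference of miR-451 was -0.39 with a pseudocount of 1 TPM and -1.18 with 0.1 TPM.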
